A study of Nicrophorus vespilloides with 24 samples.

Results

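Heads of caring female burying beetles were compared with heads of caring male burying beetles in 8 of the 24 RNA libraries of a study of *Nicrophorus vespilloides*. The 8 libraries were chosen by their labels alone, as those of the caring state, and none of their measured values were used to choose them. They comprised 4 libraries of females, 2 of them biparental and 2 uniparental, and 4 libraries of males divided in the same way. Each library was a pool of 10 heads from beetles harvested 21 days after adult eclosion. Caring beetles had mated, had been given a mouse carcass and were collected near their larvae. The methods state that beetles were then held singly and that heads were taken 24 h later. Biparental beetles stayed on the carcass with their mate, and uniparental beetles cared alone after the mate had been taken away. The biparental label therefore gives the parents present and not the care that each of them gave. Control females and control males, 4 libraries each, had mated but had no carcass, and they give the sex difference outside caring. The remaining 8 libraries, of post-caring females and males, entered the fit but are not described. The labels call the tissue brain, whereas the methods describe whole heads with brain, fat body and connective tissue. A library averages 10 individuals, so differences among beetles within a pool are not visible, and the labels do not state that the 2 pools of a group came from separate cultures. The p-values therefore measure only the spread between these pools.

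Burying beetles raise their larvae on a small vertebrate carcass, which the parents strip, coat with oral and anal secretions and partly digest before they feed the larvae by regurgitation. Both sexes can perform these acts, and a parent may care alone or beside its mate. In insects the female fat body makes the yolk precursor vitellogenin and releases it into the haemolymph. Fat body, muscle, eyes and sense organs are all found in an insect head together with the brain.

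The total in the 8 caring libraries lay between 14647691 and 23906173 expected counts, and the biparental libraries, with 14647691 to 15821030, were all below the uniparental ones, with 16131079 to 23906173. The share of loci with a value that was not a whole number also separated them, from 34.01% to 38.21% in biparental and from 46.33% to 48.93% in uniparental caring libraries. Females were compared with males within each social condition, so this gap enters only the comparison between the conditions, where social condition and any other difference between the 2 sets of libraries cannot be told apart. Within the uniparental libraries the totals also differed by sex, with 16131079 and 21259071 in females and 23406818 and 23906173 in males. The sex labels were checked with the 639 loci higher in females and the 834 lower in females among controls. These calls contrast control libraries, although the filter and the dispersions were set on all 24 libraries. The mean log2 level of the first set minus that of the second was -1.01 and -0.90 in caring biparental females, against -2.38 and -2.14 in caring biparental males. It was -0.22 and -0.36 in caring uniparental females, against -1.81 and -1.90 in caring uniparental males. All 8 libraries matched their labels within their social condition.

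Sex differences were widespread. A locus here is an assembled contig, or several contigs with overlapping regions, and 9648 of the 11403 loci had enough counts to be tested. Between caring females and caring males, 2314 loci were differentially expressed at an adjusted p under 0.05 by the quasi-likelihood test of edgeR with p-values adjusted after Benjamini and Hochberg, which is 24.0% of the loci tested. Of these, 1106 (11.5%) were higher in females and 1208 (12.5%) were lower. Most differences were small. The median size among the 2314 was 0.61 on the log2 scale, and 225 loci were more than 2-fold higher and 322 more than 2-fold lower in females. Across all loci tested the median log2 fold change was 0.03. In 1907 of the 2314 loci both female libraries lay on the same side of both male libraries under each social condition, and in 1002 the 4 female libraries lay entirely above or below the 4 male libraries. Among all loci tested, both females lay above both males under each condition at 14.6% and below them at 14.5%. The 4 females lay above the 4 males at 5.72% of all loci tested and below them at 6.30%. No locus held at least 10 counts in every caring library of a sex and at most 3 in every caring library of the other.

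**Figure D1:**
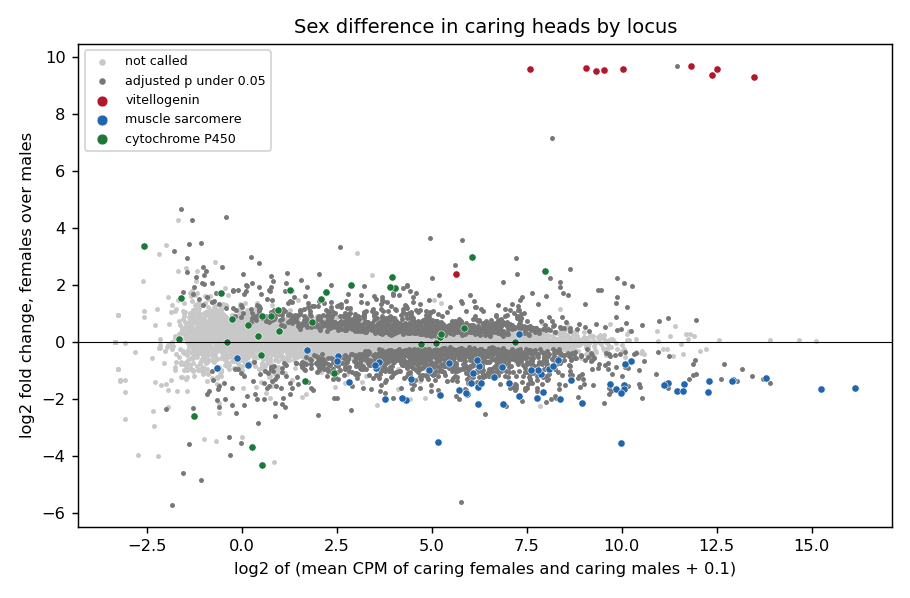
Log2 fold change of caring females over caring males (vertical) against the log2 mean CPM of both sexes plus 0.1 (horizontal) for the 9648 loci tested, with loci at an adjusted p under 0.05 in dark grey and contigs described as vitellogenin, muscle sarcomere or cytochrome P450 coloured. Of the 10 vitellogenin contigs, 9 lie between 9.29 and 9.66, while the muscle contigs that passed the test lie between -3.55 and -0.63.

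Descriptions were available for few loci. They were blast descriptions given for loci selected by the study as differing between caring and control beetles, in comparisons that include these libraries, and they were extended to loci with the same best hit. The 16 gene lists used below were drawn from them, so that neither their membership nor their direction is independent of these data. Of the 1001 described loci that were tested, 419 (41.9%) differed between caring females and males, against 1895 of 8647 (21.9%) of the loci with no description. Counts of list members are to be read against the 11.5% of all loci that were higher and the 12.5% that were lower in females. All list members are described loci, whose share called in either direction was the larger 41.9%. A list count above the share of all loci is therefore not by itself a trait of that list. Several contigs of a list can be fragments of a single gene, and counts of contigs are not counts of genes.

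Vitellogenin, the yolk precursor, had the largest median difference of the 16 lists. All 10 vitellogenin contigs tested were higher in caring females, beside 11.5% of all loci, and their median log2 fold change was 9.55. The 10 contigs shared 7 best blast hits. Summed over the contigs, the level was 75251 and 84558 CPM, counts scaled to a common library total, in caring biparental females, against 61.1 and 244 CPM in caring biparental males. It was 38078 and 37297 CPM in caring uniparental females, against 53.3 and 86.1 CPM in caring uniparental males. The female values lay far above the male values in both conditions. For 9 of the contigs the log2 fold change was between 9.29 and 9.66. The highest, Locus_C912896, held 9092, 11030, 4685 and 4216 CPM in the 4 female libraries, against 5.59, 28, 3.67 and 4.42 CPM in the 4 male libraries, with values here and below in the order biparental 1 and 2, uniparental 1 and 2. Its log2 fold change was 9.66 ± 1.0 (SE; adjusted p = 3.98e-06, edgeR quasi-likelihood test). The second library of caring biparental males stood above the other male libraries in most of these contigs. Without it the log2 fold change of Locus_C912896 was 10.43 and all 10 contigs were still higher in females.

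Vitellogenin-6, Locus_C852695, differed from the other contigs of the list in the size of its difference. It held 38.8, 66.8, 102 and 125 CPM in females, against 5.74, 11.8, 19.0 and 31.1 CPM in males. All 4 females were above all 4 males, and the log2 fold change was 2.38 ± 0.28 (adjusted p = 1.48e-05, edgeR). Locus_C909762, whose best hit is a hypothetical protein, behaved as the main vitellogenin contigs did, with 6342, 8046, 4073 and 4179 CPM in females, against 4.23, 24.3, 2.75 and 3.43 CPM in males, and had a log2 fold change of 9.68 ± 1.05 (adjusted p = 5.84e-06, edgeR). Without the second library of caring biparental males it was 10.52.

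A lysosomal acid lipase-like contig, Locus_C857706, followed vitellogenin in size. Lipases of this family release fatty acids from stored or ingested esters. Its level was 766, 909, 279 and 332 CPM in females, against 2.94, 4.98, 2.37 and 3.90 CPM in males. No female library came near a male library, and the log2 fold change was 7.16 ± 0.67 (adjusted p = 2.17e-06, edgeR). The lipase list as a whole did not share this direction. Of the 10 lipase contigs tested, 1 was higher in females, 3 were lower and 6 did not pass the test, and the list's median log2 fold change was -0.46. The lowest, the acid lipase-like Locus_10994, held 0.19, 0.06, 0.17 and 0.19 CPM in females, against 1.66, 0.62, 0.27 and 0.28 CPM in males. Its log2 fold change of -1.85 ± 0.57 (adjusted p = 0.0252, edgeR) lost the call in 7 of 15 alternative analyses, with adjusted p-values up to 0.118.

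**Figure D2:**
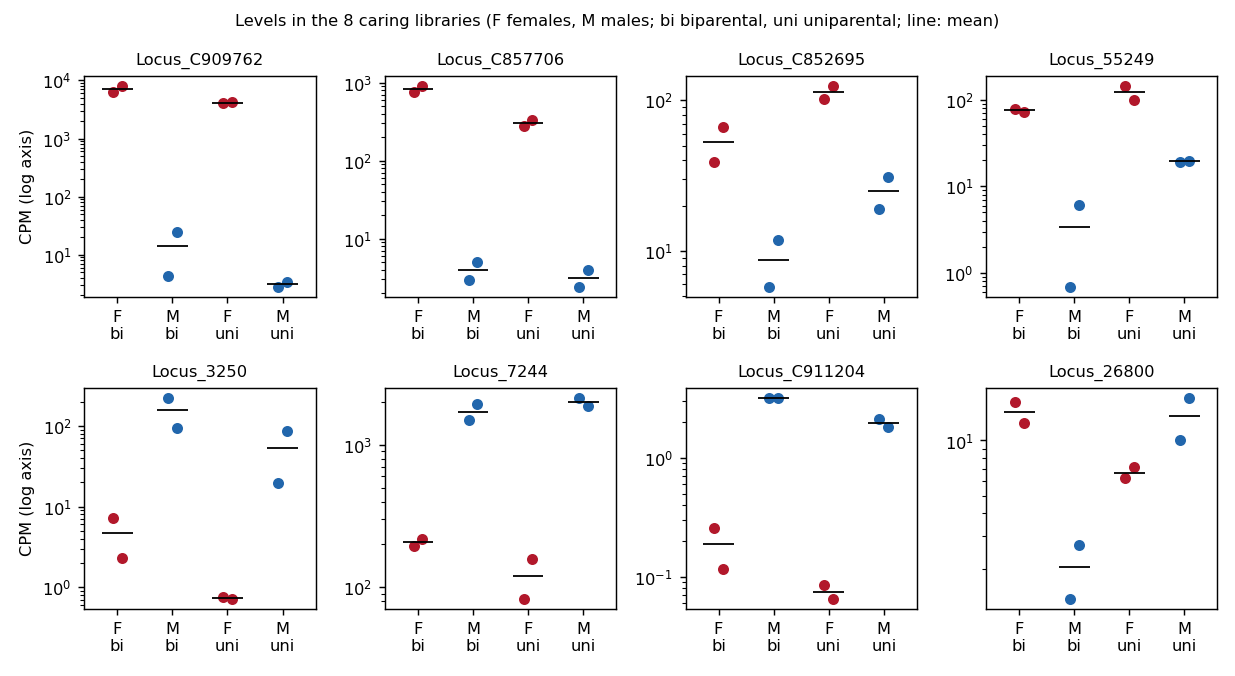
CPM on a log axis in each of the 8 caring libraries (points; line, mean of 2) for 8 loci, females (F, red) and males (M, blue) within biparental (bi) and uniparental (uni) groups. Locus_C909762, Locus_C857706, Locus_C852695 (Vitellogenin-6) and Locus_55249 (odorant-binding protein 1-like) were higher in females, Locus_3250 (arylphorin), Locus_7244 (kettin-like) and Locus_C911204 (cytochrome P450 9Z4) were lower, and Locus_26800 (beta-glucosidase) was higher in biparental females and had no call between uniparental females and males.

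Muscle contigs were the largest group that was lower in females. Of 65 sarcomere and calcium-release contigs tested, 59 were lower in caring females, 0 were higher and 6 did not pass the test, beside 12.5% of all loci lower. Their median log2 fold change was -1.43. In 60 of the 65 both females lay below both males under each condition, beside 14.5% of all loci. The summed level was 149690 and 117600 CPM in caring biparental females, against 374120 and 290550 CPM in caring biparental males. In the uniparental groups it was 51942 and 58267 CPM in females, against 185240 and 203500 CPM in males. The sexes did not overlap within a condition. In pooled tissue, fewer muscle fibres and less RNA per fibre cannot be told apart. All 66 contigs of the list held counts in these libraries.

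The muscle contigs covered the main parts of the contractile apparatus. Kettin, a titin-like spring protein that anchors insect thick filaments to the Z disc, accounted for 27 contigs, and all 27 were lower in females, with a median log2 fold change of -1.73. The lowest, Locus_7244, held 194, 219, 82.4 and 158 CPM in females, against 1495, 1925, 2132 and 1877 CPM in males, a log2 fold change of -3.55 ± 0.26 (adjusted p = 2.36e-07, edgeR). Another kettin-like contig, Locus_C829764, had 8.40, 7.40, 2.83 and 5.42 CPM in females, against 62.5, 71.3, 68.3 and 60.8 CPM in males (log2 fold change -3.51 ± 0.24, adjusted p = 2e-07, edgeR). Every female library was below every male library at both contigs. Myosin heavy chain, the motor of the thick filament, averaged 19469 CPM in females and 58981 CPM in males at Locus_C915460, with a log2 fold change of -1.66. The ryanodine receptor, which releases calcium for contraction, had a log2 fold change of -0.99 at Locus_C887996. Troponin C 25D, Locus_C857224, did not share the direction. It held 270, 212, 127 and 105 CPM in females, against 150, 124, 136 and 142 CPM in males, a log2 fold change of 0.28 ± 0.20 (adjusted p = 0.362, edgeR).

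Because vitellogenin and muscle transcripts make up a large share of the counts and differ between the sexes, they can move the scaling of every other locus. Scaling factors computed without both lists, an alternative chosen after seeing the data, gave 2306 loci for the caring sex difference, 967 higher and 1339 lower in females, and the muscle and vitellogenin counts were again 59 and 10. Contigs of phototransduction, which marks the compound eye, did not pass the test at any of 6 members. Their summed level was 1827 and 3720 CPM in caring biparental females, against 2503 and 801 CPM in caring biparental males, and 7333 and 9103 CPM in caring uniparental females, against 7715 and 6653 CPM in caring uniparental males. The sexes overlapped, while the uniparental libraries of both sexes stood above the biparental ones. The part of tissue composition in the results below was not tested.

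Storage proteins, which the fat body releases into the haemolymph, went in different directions. Arylphorin, Locus_3250, held 7.18, 2.33, 0.76 and 0.71 CPM in females, against 222, 94.7, 19.7 and 86.8 CPM in males. All females were below all males, and the log2 fold change was -5.62 ± 1.13 (adjusted p = 0.00166, edgeR). Without the second library of caring uniparental males it was -4.93. In contrast, hexamerin 3 (Locus_74364) and apolipophorin-III (Locus_C882058), a lipid carrier, were higher in females, with log2 fold changes of 1.24 and 0.64. The other 3 of the 6 contigs tested did not pass the test. Another hexamerin 3 contig, Locus_56290, had -1.42 (adjusted p = 0.457, edgeR), and another apolipophorin-III contig, Locus_46898, had 0.59 (adjusted p = 0.273, edgeR). The last was a hexamerin 4 contig, Locus_78404, with 0.26, 0.17, 0.21 and 3.10 CPM in females, against 0.08, 0, 1.11 and 0.16 CPM in males (adjusted p = 0.291, edgeR).

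Cytochromes P450, which oxidise hormones, pheromones and foreign compounds, were more often higher than lower in females. Of 34 contigs tested, 12 were higher (beside 11.5% of all loci), 5 were lower (beside 12.5%) and 17 did not pass, and the median log2 fold change was 0.63, against 0.03 over all loci. The largest difference among the abundant contigs was that of Locus_50252, with 116 CPM on average in females and 17.6 CPM in males (log2 fold change 2.96). A CYP9Z4-like contig, Locus_53532, averaged 431 CPM in females and 79.0 CPM in males (2.49). Locus_40050 was described as CYP18A1, which inactivates the moulting hormone 20-hydroxyecdysone in *Drosophila*. It held 31.9, 34.7, 17.5 and 18.1 CPM in females, against 9.51, 11.1, 3.51 and 4.85 CPM in males, and had a log2 fold change of 1.89 ± 0.22 (adjusted p = 1.03e-05, edgeR). All 4 females were above all 4 males.

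Among the P450 contigs lower in females, Locus_C911204, also described as CYP9Z4, stood out. Its level was 0.26, 0.12, 0.08 and 0.06 CPM in females, against 3.17, 3.18, 2.10 and 1.81 CPM in males. Females held 2 to 4 counts per library and males 42 to 55, and the log2 fold change was -4.34 ± 0.49 (adjusted p = 9.26e-06, edgeR). Of 3 contigs described as antennae-rich P450, 2 were lower in females, Locus_73770 with a log2 fold change of -3.69 ± 0.87 (adjusted p = 0.00523, edgeR) and Locus_30528 with -2.62 ± 0.89 (adjusted p = 0.0421, edgeR). The third, Locus_3063, averaged 0.13 CPM in females and 0.31 CPM in males and did not pass the test (log2 fold change 0.09, adjusted p = 0.923, edgeR). Locus_73770 and Locus_30528 rested on few counts, and they lost the call in 1 and 7 of 17 alternative analyses, with adjusted p-values up to 0.0569 and 0.248. Without the second library of caring biparental females their log2 fold changes were -4.93 and -3.85. In biparental beetles Locus_73770 had -5.99 (adjusted p = 0.0152, edgeR) and Locus_30528 -3.69 (adjusted p = 0.141, edgeR). In uniparental beetles they had -1.39 and -1.56, and neither passed the test (adjusted p = 0.263 and 0.251, edgeR). Neither passed the test of the difference between conditions (adjusted p = 0.285 and 0.637, edgeR). The contig with the highest fitted value in the list, Locus_19412, had 2 to 4 counts in each female library and 0 or 1 in each male library, so no fold is given.

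Genes of lipid synthesis also differed in both directions. Fatty acid synthase, which builds fatty acids from malonyl-CoA, was represented by Locus_80961, with 847, 1492, 974 and 824 CPM in females, against 183, 350, 302 and 339 CPM in males. Every female library exceeded every male library (log2 fold change 1.81 ± 0.27, adjusted p = 1.37e-04, edgeR). Fatty acyl-CoA synthetases, which activate fatty acids, were the 3 contigs of the list of 10 that were lower in females. Of these, Locus_16364 had 0 counts in all 4 female libraries and 0.45, 0.14, 0.50 and 0.35 CPM in males. Measured against 3 counts per female library it was at least 2.44-fold lower in females. Locus_C909540 had a log2 fold change of -2.60, or -3.51 without the first library of caring biparental females. It was -4.25 in biparental and -0.95 in uniparental beetles, where it did not pass the test (adjusted p = 0.351, edgeR). The difference between conditions did not pass either (adjusted p = 0.214, edgeR). Locus_13513 had a log2 fold change of -1.30. An elongase of very long chain fatty acids, Locus_57770, was higher in females, with a log2 fold change of 0.72, and the other 5 did not pass the test.

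Chemosensory genes were higher in females where they differed. Odorant-binding proteins carry odorants to receptors in the antennae and occur in other secretions as well. Of 27 contigs for odorant binding, receptors and odorant breakdown, 8 were higher in females (beside 11.5% of all loci), 0 were lower (beside 12.5%) and 19 did not pass, with a median log2 fold change of 0.61. The number higher was 5 without the second library of caring biparental females, without the first of caring biparental males, or without the first of caring uniparental males. The highest was the odorant-binding protein 1-like Locus_55249, with 79.3, 72.8, 146 and 99.96 CPM in females, against 0.68, 6.08, 19.1 and 19.8 CPM in males. All females were above all males, and the log2 fold change was 3.56 ± 0.47 (adjusted p = 3.87e-05, edgeR), or 4.69 without the second library of caring biparental males. Of the other contigs described as odorant-binding protein 1, Locus_6761 was higher in females (log2 fold change 0.84). Locus_40943 (-0.03) and Locus_18842 (-0.43) did not pass the test. Odorant-binding protein 3, Locus_C895814, averaged 1055 CPM in females and 350 CPM in males (log2 fold change 1.82). An odorant receptor 64 contig, Locus_41970, had a log2 fold change of 1.20. The other contigs with that receptor description, Locus_49010 (0.10), Locus_68618 (0.17) and Locus_C906378 (0.61), did not pass. The lowest of the list, chemosensory protein 7 (Locus_C896282), had a log2 fold change of -1.34 ± 0.54 with an adjusted p of 0.0797 (edgeR). Taken by condition, 7 of the 27 were higher in biparental females (beside 5.17% of all loci), with a median of 0.96. In uniparental females 2 were higher (beside 8.14%), with a median of 0.27. None of the contigs called under either condition passed the test of the difference between conditions.

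Immune genes were higher in females where they differed. Of 13 contigs for the recognition or killing of microbes, 7 were higher in females (beside 11.5% of all loci), 0 were lower (beside 12.5%) and 6 did not pass, with a median log2 fold change of 1.01. Under biparental conditions 1 was higher in females (beside 5.17% of all loci) and the median was 0.14, and under uniparental conditions 7 were higher (beside 8.14%) and the median was 1.23. No contig of the list passed the test of the difference between conditions. Peptidoglycan recognition proteins, which detect bacterial cell walls, made up 4 of the 7, among them Locus_25807, with 19.5 CPM on average in females and 6.23 CPM in males (log2 fold change 1.58), and Locus_2397 (1.01). An antimicrobial peptide-like contig, Locus_47519, had log2 fold changes of -0.55 in biparental and 5.92 in uniparental beetles. The number higher was 4 rather than 7 without the second library of caring biparental females, the first of caring biparental males or the second of caring uniparental males, and 3 without the second of caring uniparental females or the first of caring uniparental males.

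Contigs described as melanization-related proteins were higher in females. Melanization seals wounds and encloses parasites with pigment made by phenoloxidase. Locus_C870474 held 304, 579, 478 and 471 CPM in females, against 52.2, 128, 78.5 and 135 CPM in males, a log2 fold change of 2.22 ± 0.29 (adjusted p = 3.85e-05, edgeR), with all females above all males. Locus_C881922 averaged 530 CPM in females and 136 CPM in males (log2 fold change 1.93). The other 5 contigs of that list, which include a prophenoloxidase-activating enzyme precursor (Locus_C818186, log2 fold change -0.50, adjusted p = 0.514, edgeR), did not pass the test, and the list's median was -0.03.

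**Figure D3:**
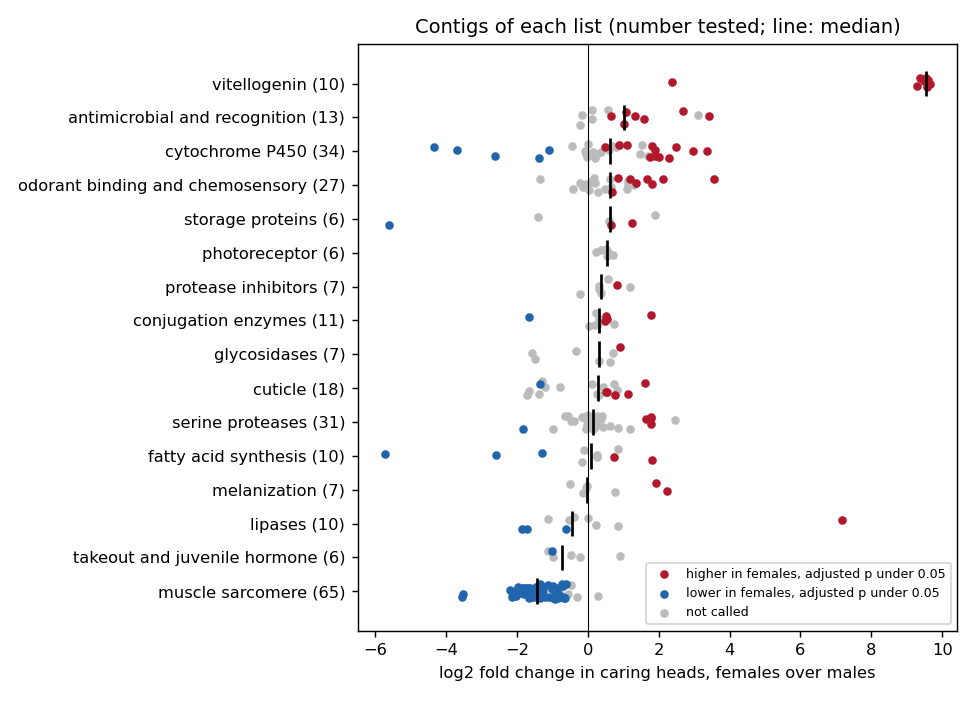
Log2 fold change of caring females over caring males for each contig tested (points) in 16 lists, ordered by the list median (black line), with the number of contigs tested in brackets. Red contigs were higher and blue ones lower in females at an adjusted p under 0.05, and grey ones did not pass the test. The vitellogenin list (median 9.55) and the muscle list (median -1.43) lie at opposite ends.

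In the remaining lists the counts are set beside 11.5% of all loci higher and 12.5% lower in females. Among 31 serine proteases, enzymes of digestion and of proteolytic cascades, 4 were higher in females, 1 was lower and 26 did not pass. The lower contig, Locus_27276, had 0.90, 0.82, 0.72 and 1.51 CPM in females, against 3.92, 1.66, 4.73 and 4.38 CPM in males (log2 fold change -1.84 ± 0.33, adjusted p = 5.95e-04, edgeR). Of 18 cuticle contigs 5 were higher and 1 was lower, and of 11 conjugation enzymes, which attach sugars or glutathione to foreign compounds, 4 were higher and 1 was lower. Among these, a glucosyl or glucuronosyl transferase, Locus_70143, was higher (log2 fold change 1.78 ± 0.43, adjusted p = 0.00605, edgeR) and another, Locus_30148, was lower (-1.65 ± 0.45, adjusted p = 0.0132, edgeR). Of 7 glycosidases, the beta-glucosidase described below (Locus_26800, log2 fold change 0.89, adjusted p = 0.0298, edgeR) was higher and the other 6 did not pass. That call was lost in 6 of 17 alternative analyses, with adjusted p-values up to 0.586, and the log2 fold change was 2.81 in biparental and -1.02 in uniparental beetles. A protease inhibitor contig, Locus_C815084, was the only member of 7 that passed, with 3143 CPM on average in females and 1652 CPM in males.

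Takeout proteins and enzymes of juvenile hormone turnover made up a short list. Takeout proteins bind small hydrophobic ligands, and juvenile hormone esterase breaks down the hormone that governs vitellogenin synthesis in many insects. Of 6 contigs tested, 1 was lower in females (beside 12.5% of all loci), 0 were higher (beside 11.5%) and 5 did not pass. So few contigs do not set the list apart from all loci. The lower contig was a juvenile hormone esterase, Locus_71619, with 41.0 CPM on average in females and 85.2 CPM in males (log2 fold change -1.02 ± 0.22, adjusted p = 0.00266, edgeR). A second juvenile hormone esterase contig, Locus_C888074, held 0.45, 0.93, 0.51 and 0.64 CPM in females, against 0.30, 0.28, 0.34 and 0.43 CPM in males (log2 fold change 0.91 ± 0.35, adjusted p = 0.0699, edgeR). The takeout-like Locus_C894552 had 0.38, 0.12, 0.13 and 0.29 CPM in females, against 2.04, 0.07, 0.19 and 0.32 CPM in males (adjusted p = 0.308, edgeR). The first library of caring biparental males lay above all others, and without it the log2 fold change was 0.73.

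Several of the loci with the largest negative differences were nearly silent. Locus_67484 and Locus_63263, both of unknown description, held at most 3 and 2 counts in any female library and were at least 4.83-fold and 3.56-fold lower in females, measured against 3 counts. Locus_C901226 was at least 3.23-fold lower by the mean over the male libraries, which held 0.98, 0.69, 0.11 and 0.12 CPM. In uniparental beetles its difference did not pass the test (adjusted p = 0.268, edgeR). Yellow-3, Locus_69970, a member of a family linked to pigmentation in flies, had 0, 0.29, 0.04 and 0.13 CPM in females, against 1.74, 1.31, 1.26 and 0.79 CPM in males, a log2 fold change of -3.34 ± 0.64 (adjusted p = 0.0011, edgeR), or -5.62 without the second library of caring biparental females. At a higher level, a contig described as ankyrin repeat and death domain-containing protein 1A-like, Locus_5884, had 0.83, 0.87, 1.44 and 1.39 CPM in females, against 6.34, 3.39, 8.78 and 8.59 CPM in males (log2 fold change -2.56 ± 0.25, adjusted p = 2.96e-06, edgeR). All females were below all males.

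The sex difference was next taken within each social condition. In biparental beetles 1093 loci (11.3%) differed between females and males, 499 higher (5.17%) and 594 lower (6.16%) in females. In uniparental beetles 1783 (18.5%) differed, 785 higher (8.14%) and 998 lower (10.3%). The same loci differed in the same direction under both conditions in 590 cases, which is 54% of the biparental and 33.1% of the uniparental loci, and in opposite directions in 5. Across the 9648 loci the biparental and uniparental log2 fold changes, which share no library, were correlated with r = 0.55 (Pearson) and rho = 0.42 (Spearman), given as a description over loci that are not independent. The numbers depended on single libraries. For the caring sex difference, biparental, the number was 296 without the second library of females and 410 without the first of males. For the caring sex difference, uniparental, it was 634 and 816 without the first and the second library of females, and 1050 and 697 without the first and the second of males.

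The difference between the conditions, tested directly as the biparental minus the uniparental sex difference, passed at 8 loci (0.0829%), 7 positive (0.0726%) and 1 negative (0.0104%), and 1437 loci had an unadjusted p under 0.05. At all 8 the fold change had opposite signs under the 2 conditions. None of the 6 loci named here kept its call under every alternative, and the number was 0 when only the caring libraries were fitted or when any of 4 caring libraries was left out (the second biparental female, either uniparental female, or the second uniparental male). It was 2 without the first biparental male library. The beta-glucosidase contig Locus_26800 held 16.2, 12.5, 6.20 and 7.13 CPM in females, against 1.36, 2.70, 10.0 and 17.1 CPM in males. Females were above males when biparental and below them when uniparental, and the log2 difference was 3.83 (adjusted p = 0.016, edgeR).

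Locus_C868160, a hypothetical protein, was arranged like the beta-glucosidase contig. It held 109, 94.6, 128 and 117 CPM in females, against 55.6, 37.7, 166 and 176.5 CPM in males (log2 difference 1.61, adjusted p = 0.0215, edgeR). At the loci that follow, the libraries were arranged differently. Locus_65710, an uncharacterised protein, had 41.9, 138, 7.05 and 3.55 CPM in females, against 1.96, 1.45, 6.87 and 66.1 CPM in males. Its log2 difference was 8.52 (adjusted p = 0.016, edgeR), but 6.11 with an adjusted p of 0.101 without the second library of caring uniparental males, and 7.41 with an adjusted p of 0.0585 without the second of caring biparental females. Giwi, Locus_14169, named for the Piwi family that silences transposons with small RNAs, held 24.0, 41.4, 27.2 and 25.6 CPM in females, against 22.7, 26.5, 67.5 and 105 CPM in males (log2 difference 2.12, adjusted p = 0.0309, edgeR). The uniparental males stood above the other libraries. An aquaporin, a water channel, held 148, 100.4, 24.6 and 26.5 CPM in females at Locus_26576, against 28.1, 46.9, 34.2 and 26.8 CPM in males (1.98, adjusted p = 0.0484, edgeR), and here the biparental females stood above.

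**Figure D4:**
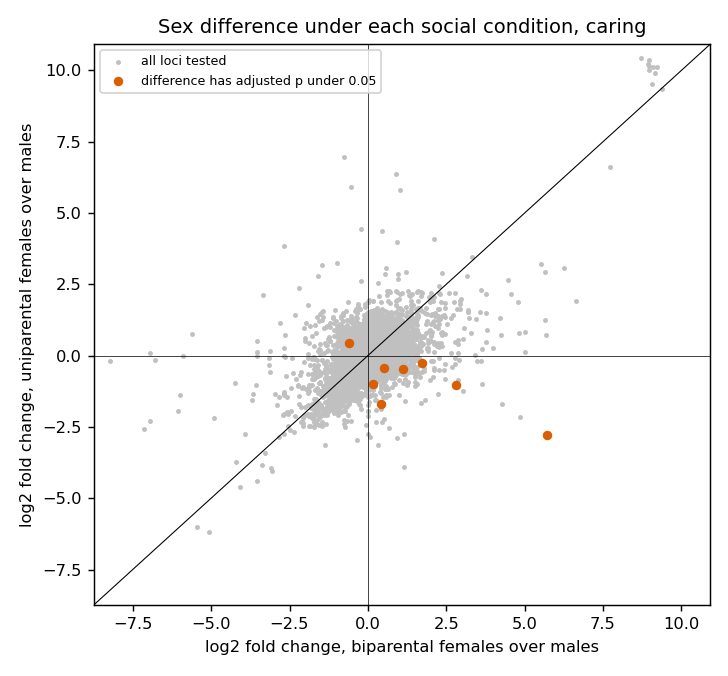
Log2 fold change of females over males in biparental (horizontal) and uniparental (vertical) caring heads for the 9648 loci tested, with the line of equality. The 8 loci whose difference between the conditions had an adjusted p under 0.05 (orange) have opposite signs under the 2 conditions, and vitellogenin contigs lie at the upper right.

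The sex difference of control beetles served as the background. In controls 1473 loci (15.3%) differed between females and males, 639 higher (6.62%) and 834 lower (8.64%) in females, in the same fit, from libraries that the caring contrast did not compare. For the control sex difference the number was 761, 835 and 902 without the first library of control uniparental females, the second of control uniparental males and the second of control biparental males. Of the 2314 loci that differed in caring beetles, 1021 also differed in the same direction in controls, which is 44.1% of the caring and 69.3% of the control loci, and 4 differed in the opposite direction. The sign of the control difference was the same at 2175 of the 2314 (94%). Over all loci the caring and control log2 fold changes gave r = 0.66 (Pearson) and rho = 0.64 (Spearman), again as a description over loci.

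The main groups kept their direction outside caring. All 10 vitellogenin contigs were higher in control females, beside 6.62% of all loci. Their median log2 fold change was 8.16 in controls and 9.55 in caring beetles. Summed vitellogenin in controls was 459620 and 586940 CPM in biparental females, against 637 and 241 CPM in biparental males, and 222380 and 263070 CPM in uniparental females, against 6590 and 190 CPM in uniparental males. The first library of control uniparental males stood above the other male libraries. Of the 65 muscle contigs, 44 were lower in control females, beside 8.64% of all loci. Their median was -0.88 in controls and -1.43 in caring beetles. No vitellogenin contig and no muscle contig passed the test of the caring minus the control difference. For the other lists, the control counts are set beside 6.62% of all loci higher and 8.64% lower in control females. No list was tested as a whole for a change between controls and caring beetles. In controls, takeout and juvenile hormone contigs were higher in females at 2 and lower at 0 of 6. The 2 takeout-like contigs called there, Locus_3293 and Locus_56531, averaged at most 0.14 CPM in caring beetles of either sex. Melanization contigs were higher at 3 and lower at 0 of 7. Odorant-binding and chemosensory contigs were higher in females at 3 and lower at 1 of 27, P450 contigs higher at 5 and lower at 0 of 34, and antimicrobial contigs higher at 2 and lower at 0 of 13.

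Tested directly, the sex difference of caring beetles departed from that of controls at 43 loci (0.446%), with a more positive difference in caring beetles at 17 (0.176%) and a more negative one at 26 (0.269%), and 812 loci had an unadjusted p under 0.05. Of the 43, 23 differed between the sexes among caring beetles alone, 13 among controls alone and 7 in both, of which 3 were in opposite directions. The number was 17 to 22 without any of 5 caring libraries (the second biparental female, the first biparental male, the first uniparental female and either uniparental male), and 27 without the second uniparental female. The largest positive difference was that of a contig described as venom carboxylesterase-6, Locus_15540. It held 8.59, 19.6, 5.53 and 8.74 CPM in caring females, against 0.83, 0.21, 2.21 and 1.70 CPM in caring males. In controls it held 1.54, 2.05, 1.80 and 1.0 CPM in females, against 0.93, 1.34, 1.57 and 1.92 CPM in males. The sexes were apart in caring beetles and overlapped in controls (log2 difference 3.15 ± 0.57, adjusted p = 0.0206, edgeR), or 3.76 without the first library of caring biparental males, although the call was lost in 4 of 17 alternative analyses, with adjusted p-values up to 0.185.

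CYP18A1 (Locus_40050), whose caring values are given above, held 9.54, 3.94, 4.40 and 6.19 CPM in control females, against 8.38, 11.9, 5.08 and 5.50 CPM in control males. Its caring minus control difference was 2.18 (adjusted p = 0.00431, edgeR). A rho GTPase-activating protein, Locus_13452, held 31.7, 36.5, 18.7 and 18.2 CPM in caring females, against 4.30, 8.50, 5.84 and 8.24 CPM in caring males, and its difference was 2.20 (adjusted p = 0.00889, edgeR). In controls it held 4.55, 2.79, 2.39 and 1.41 CPM in females, against 4.74, 3.32, 2.64 and 2.66 CPM in males, so caring females stood above all other libraries listed. Among loci chosen after their values were seen, nitric oxide synthase (Locus_21906), which makes a gaseous signal, had a log2 fold change of 1.32 in caring beetles and 0.08 in controls, and Gelsolin (Locus_4083), which severs actin filaments, had 2.08 and 0.16.

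The most negative difference was that of the CYP9Z4-like Locus_C911204. In controls it held 3.67, 6.56, 6.26 and 9.37 CPM in females, against 6.52, 3.48, 5.38 and 7.11 CPM in males, where the sexes overlapped. Its caring minus control difference was -4.51 (adjusted p = 0.00352, edgeR). A contig similar to the *Drosophila* gene CG7675, Locus_C906608, was lower in caring females and higher in control females. It held 0.06, 0.12, 0.42 and 0.64 CPM in caring females, against 1.28, 1.18, 1.49 and 1.26 CPM in caring males, and 1.84, 2.79, 5.25 and 5.54 CPM in control females, against 0.70, 0.79, 1.42 and 3.15 CPM in control males. The difference was -3.93 (adjusted p = 0.00352, edgeR). A luciferase-like contig, Locus_15119, from a family of enzymes related to acyl-CoA synthetases, had 0.32, 0.41, 1.18 and 0.90 CPM in caring females, against 3.77, 2.005, 2.37 and 2.88 CPM in caring males (difference -2.48, adjusted p = 0.00393, edgeR).

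**Figure D5:**
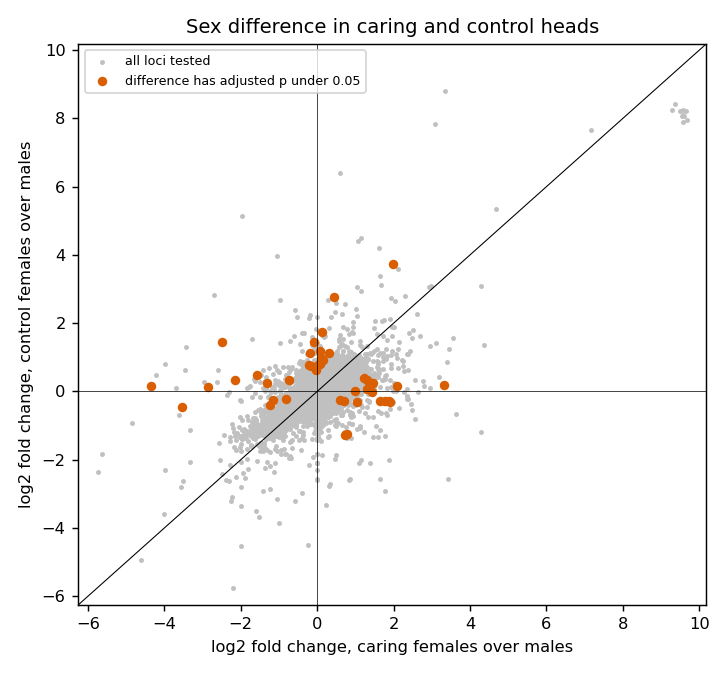
Log2 fold change of females over males in caring (horizontal) and control (vertical) heads for the 9648 loci tested, with the line of equality. The 43 loci whose caring minus control difference had an adjusted p under 0.05 are orange and lie mostly near an axis, 23 of them called among caring beetles alone and 13 among controls alone.

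The last 2 loci were also chosen after their values were seen. Traffic jam (Locus_1200), a transcription factor that acts in gonad and brain development in *Drosophila*, had a log2 fold change of 1.99 in caring beetles and 3.74 in controls, a difference of -1.76 (adjusted p = 0.0147, edgeR). Dimmed (Locus_27563), which promotes the secretory character of peptide-releasing neurons in *Drosophila*, had a log2 fold change of 0.12 in caring beetles, which did not pass the test (adjusted p = 0.639, edgeR), and of 1.76 in controls. Its difference was -1.64 (adjusted p = 0.00379, edgeR).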

How the data were processed

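PolyA RNA from pools of 10 heads was sequenced in 24 libraries, and libraries were grouped by the sex, parenting type and parenting stage in their labels, which gave 12 groups of 2. For control males the numbers in the titles, used here, and those in the deposited columns are exchanged. The authors trimmed read pairs with Trimmomatic 0.30, built a de novo assembly, restricted it to contigs that matched an arthropod protein or nucleotide sequence, and assigned reads with Bowtie2 and RSEM. They deposited expected counts per locus for each library, not normalized and not pooled. Reads that RSEM splits among similar contigs can blur contigs of the same family.

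Expected counts were rounded to whole numbers. Group means were fitted to all 24 libraries at once in edgeR 4.0.16 (R 4.3.3), with TMM factors and filterByExpr (minimum count 10), which kept 9648 of 11403 loci. Contrasts were tested with the quasi-likelihood test, Benjamini-Hochberg adjustment over all loci tested and a threshold of 0.05. CPM are counts divided by the library total of tested loci and its TMM factor, scaled to 1e6. Fold changes are females over males with a prior count of 0.125, and SE is the size of the log2 fold change divided by the square root of F. Totals per caring library ran from 14647691 to 23906173. Replicate libraries differed by more than counting noise (chi-square per degree of freedom 19.45 to 53.89 in caring groups), so the 2 libraries per group and not the depth limit the precision at abundant loci. A sex with at most 3 counts in every library was set to 3 counts per library for a bound on the fold.

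The test was checked on simulated counts for the caring sex difference with 9393 loci. It recovered 96 of 100 loci changed 4-fold and 81 of 100 changed 2-fold, and called 16 unchanged loci. Only loci above a minimum mean count were changed. Counts were drawn with the fitted dispersions and with no other difference between groups. The recovery therefore does not apply to loci of few counts or to data with sex differences as widespread as these.

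Named loci were the 10 largest differences in each direction among called loci that separated the sexes under both conditions, the 10 largest in each direction among called loci with an informative description, the highest and lowest member of each list, and the 5 highest and 5 lowest called in the biparental minus uniparental and the caring minus control comparisons. Further examples were chosen after their values were seen. The compared groups, the lists and these rules were chosen with earlier results of these data known. Descriptions were taken by locus name from the study's supplementary list of 866 loci and passed to 263 loci with the same best hit, so that 1129 had a description. Fold changes and p-values in that list were not used. The alternatives were edgeR's likelihood ratio test, DESeq2 1.42.0, no filter, RLE factors, a prior count of 2, a replicate block, only the libraries compared with or without an interaction, each library left out and, chosen after seeing the data, other scaling factors. Contig sequences and lengths were not used here, so levels are not compared between loci.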

Additional observations from a re-analysis of the deposited data

Results flagged for a closer look

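In 130 sets of 4 libraries of a sex, for named loci, 17 held a library whose gap to the nearest other exceeded Dixon's 95% critical value. The usual rate of 1 in 20 holds for normal values from 1 group, whereas each set joined 2 social conditions. Contigs of a family are also not independent, so the 17 are not to be read against that rate. The second library of caring biparental males held the highest male CPM at 7 of them, all vitellogenin contigs or the hypothetical Locus_C909762. It had 24.27 CPM at Locus_C909762, 28 at Locus_C912896, 4.839 at Locus_C869378, 8.504 at Locus_C885328, 50.4 at Locus_C912104, 5.392 at Locus_C896214 and 95.89 at Locus_C911252. The first library of caring biparental males stood apart at 4, with 1.51 CPM at Locus_67484, 1.057 at Locus_63263, 2.038 at Locus_C894552 and 8.756 at Locus_17764. Single libraries stood apart at the other 6. Among females, the first caring uniparental library had 0.0422 CPM at Locus_C901226, the second had 3.095 at Locus_78404 and the second caring biparental library had 0.7576 at Locus_23637. Among males, the first caring uniparental library had 1.107 CPM at Locus_78404 and 0.03818 at Locus_19412, and the second had 66.14 at Locus_65710.

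The sex difference itself differed between caring and control beetles, by the edgeR test of that difference, at 10 named loci. The caring minus control log2 difference was 3.146 at Locus_15540, 2.195 at Locus_13452, 2.179 at Locus_40050, 2.034 at Locus_C908802 and 2.015 at Locus_3933. It was -4.515 at Locus_C911204, -3.928 at Locus_C906608, -3.1 at Locus_51822, -2.986 at Locus_23637 and -2.481 at Locus_15119. Of these, 5 lost the call under at least 1 of 17 alternative analyses: Locus_C908802 and Locus_23637 in 8 each (adjusted p up to 0.0834 and 0.122), Locus_15540 in 4 (0.185), Locus_51822 in 2 (0.115) and Locus_3933 in 1 (0.0522), all by edgeR or DESeq2. The biparental minus uniparental log2 difference passed at 6 named loci, with 8.519 at Locus_65710, 3.83 at Locus_26800, 2.123 at Locus_14169, 1.981 at Locus_26576, 1.61 at Locus_C868160 and -1.05 at Locus_37964. None of the 6 kept its call under every alternative.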

How the results depend on the processing

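The caring sex difference gave 2314 loci and between 1874 and 2445 under the other tests, filters, models and scalings, and 1583 to 2116 when a caring library was left out. For the caring sex difference, biparental, leaving out a library gave 296 to 1021 loci, for the caring sex difference, uniparental, 634 to 1802, and for the control sex difference 761 to 1446. For the caring sex difference, biparental minus uniparental (8 loci), the likelihood ratio test gave 81, DESeq2 207, the replicate block 4 and a fit of only the caring libraries 0, and leaving out a library gave 0 to 11. For the sex difference, caring minus control (43 loci), they were 103 with the likelihood ratio test, 97 with DESeq2, 27 with only the libraries compared and 28 with those in an additive model, and 17 to 39 without a library. The cause was not tested. Replicate numbers did not pair the libraries (correlation of deviations 0.299, -0.028, -0.298 and 0.379 in caring biparental, caring uniparental, control biparental and control uniparental groups), and with the replicate block the caring sex difference was 2246 loci. Leaving out a library left a group with 1 library, assumed to vary like the others. Of 54 called differences of named loci, 34 kept their call under every alternative run and 20 lost it under at least 1, and none reversed. Vitellogenin contigs called higher in caring females were 10 and muscle contigs called lower 55 to 60 in every alternative run. With 2 libraries a group, differences at loci of few counts were poorly resolved.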
